A study of Nematostella vectensis with 10 samples.

Results

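The apical piece of the *Nematostella vectensis* planula was compared between mid-planula larvae, 50 to 60 h post fertilisation, and late planula larvae, 75 to 85 h post fertilisation. The comparison comprised every apical library of the series, 2 from mid-planulae and 3 from late planulae, which is 5 of the 10 libraries; the other 5 were made from the rest of the larval body. No treatment, strain or genotype is given for the larvae. Each library was prepared from apical tissue cut with needles from a pool of at least 50 larvae of at least 3 batches, so that the stages were sampled from different larvae, and the piece contained the apical organ together with the surrounding ectoderm. Nothing states whether the pools came from separate cultures, and p-values therefore measure only the spread between these pools, which may be technical.

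The planula is the ciliated swimming larva of the sea anemone. At its leading pole lies the apical organ, a sensory structure in which cells bearing a tuft of long cilia occupy a spot that is surrounded by a ring of larva-specific neurons. The development of the organ requires fibroblast growth factor signalling, and the organ is a larval structure that is not kept in the polyp formed at metamorphosis. Peptidergic sensory cells and several types of gland cell share the apical ectoderm. The comparison asks how gene expression in this piece changed as the larva approached metamorphosis.

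The apical libraries held 14364093 to 23715239 counts (median 20444575). Levels are expressed as CPM, counts brought to a common library size, after TMM normalisation (trimmed mean of M-values), which corrects for libraries in which a few genes take a large share of the reads. The TMM factors were 1.22 and 1.07 in the mid-planula replicates 1 and 2, and 0.889, 1.02 and 0.742 in the late planula replicates 1, 2 and 3. The 100 largest genes held 30.5% and 34.5% of the counts in the mid-planula libraries and 41.1%, 37.8% and 46.7% in the late ones, so that late replicate 2 was nearest to the mid-planula libraries by both measures. The 10 genes whose share of the counts grew most held 8.10% and 10.7% of the mid-planula counts and 16.4%, 13.5% and 20.2% of the late counts, and none of the 10 passed the stage test given below (lowest adjusted p = 0.0706, edgeR). Pearson's correlation of log2 CPM across genes, which are not independent replicates, was 0.944 for the mid-planula pair, 0.932 to 0.959 for the late pairs and 0.907 to 0.937 between stages. By correlation late replicate 2 was not the closest to both mid-planula libraries, with r = 0.934 to mid-planula replicate 1 and 0.916 to replicate 2, against 0.933 and 0.937 for late replicate 1. No pair of apical libraries of 1 stage or across stages agreed within sampling noise, as the chi-square over genes was 31.3 to 195 times its degrees of freedom.

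One apical library, mid-planula replicate 1, held more RNA of genes expressed mainly in the body than the other 4. Whether this RNA came from body tissue in the piece was not tested. A list of 105 body-restricted genes was formed from genes with at least 10 CPM in every body library and a mean at least 16-fold lower in the apical libraries, and because it was chosen on these libraries it serves only as a description. Their summed level was 411 CPM in mid-planula replicate 1, 91.0 CPM in replicate 2 and 107, 107 and 127 CPM in late replicates 1 to 3. This corresponds to 3.53% and 0.781% of the mid-planula body mean and to 0.386%, 0.386% and 0.457% of the late body mean, so that mid-planula replicate 1 stood apart from the other 4 apical libraries. The markers of gland-cell type 4, a secretory cell of the pharyngeal and mesentery tissue, summed to 25.3 CPM in mid-planula replicate 1 and to 6.64 to 9.71 CPM in the other 4.

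**Figure D1:**
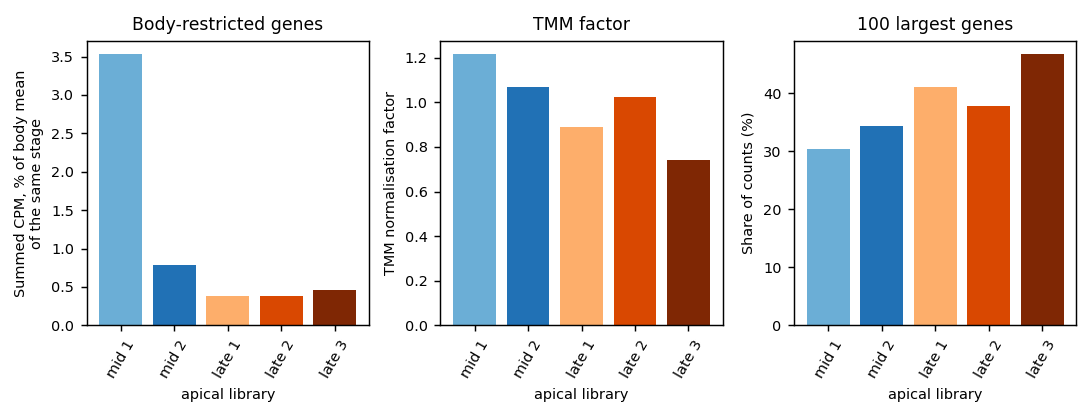
Bars for the 5 apical libraries (mid-planula replicates 1 and 2, late planula replicates 1 to 3) of the summed CPM of the 105 body-restricted genes as a percentage of the body mean of the same stage, of the TMM factor, and of the share of counts in the 100 largest genes. Mid-planula replicate 1 stands out at 3.53% of the body level, and late replicate 2 has the TMM factor and the share nearest to those of the mid-planula libraries.

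Between the stages, 455 of 21683 tested gene models (2.10%) differed in the apical tissue, 255 of them higher in the late planula (1.18%) and 200 lower (0.922%), at an adjusted p-value under 0.05 by edgeR (quasi-likelihood test, Benjamini-Hochberg adjustment). The median log2 fold change of the 255 that rose was 2.04, and 132 of them rose by at least 4-fold. The 200 that fell had a median of -1.58 (interquartile range -1.88 to -1.34), and 43 of them fell by at least 4-fold. Over all tested genes the median was 0.04. Before adjustment, 3544 genes (16.3%) had a p-value under 0.05.

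How many genes passed depended on single libraries and on the model. The DESeq2 Wald test called 1488 genes and edgeR on the apical libraries alone 225. Without mid-planula replicate 1, edgeR called 0 genes, with 2731 at an unadjusted p-value under 0.05, and without mid-planula replicate 2 it called 219. Without late replicate 3 it called 61, 46 of them higher and 15 lower in the late planula, and without late replicate 2 the genes that fell numbered 86. With library sizes alone in place of TMM, the split turned from 255 higher and 200 lower to 128 higher and 600 lower, and the median over all genes moved from 0.04 to -0.32.

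Most genes that rose were already expressed in the mid-planula apical tissue. Of the 255, 16 had no more than 3 counts in either mid-planula library, where 473 of all 21683 tested genes did so, a smaller share. The 16 reached a median of 1.60 CPM in the late planula. The other 239 had a median of 5.67 CPM in the mid-planula and 22.5 CPM in the late planula. The files and the reference table used here do not pair these gene models with names, so the 2 with the largest changes in each direction are given by identifier and the rest by their values.

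NVE2089 had no counts in either mid-planula apical library and 4.74, 4.96 and 4.84 CPM in late replicates 1, 2 and 3. Taken against 3 counts per library, the smallest level considered here, the late planula level was higher by at least 32.3-fold (adjusted p = 0.00517, edgeR). Its late levels were nearly the same in all 3 libraries, and in the body it rose as well, from a mean of 0.719 to 5.03 CPM (log2 fold change 2.81 with a standard error of 0.49, adjusted p = 0.0161). The call was lost without mid-planula replicate 1 and in 1 other alternative (adjusted p = 0.0750 and 0.0545, over all alternatives 6.5e-07 to 0.0750). NVE15449, likewise at 0 in both mid-planula libraries, had 0.661, 10.1 and 3.28 CPM in the late replicates, higher by at least 31.2-fold (adjusted p = 0.0196, edgeR). Its late libraries spread widely, with replicate 2 the highest and a bound of 13.1-fold without that library, and it was not called without mid-planula replicate 1 (adjusted p = 0.168), mid-planula replicate 2 (0.0683) or late replicate 3 (0.0579), with 1.13e-05 to 0.173 over all alternatives.

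At the upper end of the expression range, the gene with the highest average level among those that rose had 993 and 1144 CPM in the mid-planula libraries and 2018, 2729 and 2913 CPM in the late ones. The groups did not overlap, and the log2 fold change was 1.26 (standard error 0.29, adjusted p = 0.0461, edgeR). In the body the same gene went from a mean of 1194 to 3374 CPM (log2 fold change 1.498, adjusted p = 0.0225).

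After their values had been seen, the genes that fell were split into 2 groups. The split asked whether the mean in the mid-planula body was at least 4 times that in the mid-planula apical tissue. This held for 16 of the 200, for 46 of the 255 that rose and for 1263 of all 21683 tested genes. For 184 of the 200 it did not. These were well expressed in the mid-planula apical tissue, with a median of 26.9 CPM that became 9.52 CPM in the late planula, a median log2 fold change of -1.56. The mid-planula libraries had similar levels of these genes, with medians 0.08 above (replicate 1) and 0.08 below (replicate 2) their common mean on the log2 scale. Replicate 1 was the higher of them in 131 of the 184 genes, against 11455 of all 21683 tested genes. The genes were called in a fit on these libraries, so their closeness is a description. The most abundant of them had 538 and 509.9 CPM in the mid-planula and 250.1, 134 and 139 CPM in late replicates 1, 2 and 3 (log2 fold change -1.59 with a standard error of 0.30, adjusted p = 0.0210, edgeR). Late replicate 1 kept the most of this transcript, and no late library reached a mid-planula level.

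The other 16 genes that fell had means of 3.42 to 1723 CPM (median 32.2) in the mid-planula body and were present in the apical libraries only at a median of 2.03 CPM in the mid-planula and 0.184 CPM in the late planula. In 14 of these 16 mid-planula replicate 1 was the higher mid-planula library, against 145 of all 200 that fell and 11455 of all 21683 tested genes. Of the 16, 10 are among the 105 body-restricted genes, an overlap that follows in part from how both lists were chosen. Of the 105, 10 fell (9.52%) and 1 rose (0.952%), against 0.922% and 1.18% of all tested genes. NVE8274 had 1.46 and 0.131 CPM in mid-planula replicates 1 and 2 and no counts in late apical libraries (adjusted p = 0.0428, edgeR). In the body its mean was 30.5 CPM in the mid-planula and 31.1 CPM in the late planula, which is many times its level in any apical library. NVE21640 behaved alike, with 0.902 and 0.131 CPM in mid-planula replicates 1 and 2, 0 in the late libraries and 14.8 and 10.3 CPM in the body at the 2 stages (adjusted p = 0.0302, edgeR). Because mid-planula replicate 2 held no more than 3 counts of either gene, no fold change is given. Neither gene was called without mid-planula replicate 1 (adjusted p = 0.373 and 0.291), and each also lost its call without late replicate 1 (0.0863 and 0.0600), late replicate 2 (0.0727 and 0.0555) or late replicate 3 (0.119 and 0.0854), with 0.00242 to 0.373 and 0.000737 to 0.291 over all alternatives. Whether body tissue in the apical pieces had a share in these falls was not tested. When the 105 body-restricted genes were left out, an alternative added after their levels had been seen, 435 genes were called in place of 455.

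The stage change was set beside that of the body, which was measured in other libraries but in the same fit. Apical and body pieces may come from the same larvae and batches, so that the stage changes of the tissues are not independent. Of the 255 genes that rose in the apical tissue, 249 had a positive log2 fold change in the body, and 136 were called as rising there (53.3% of the genes rising apically and 31.6% of the 431 rising in the body). In the body 2.64% of all tested genes were called, 1.99% as higher in the late planula and 0.650% as lower. Of the 200 genes that fell, 180 had a negative log2 fold change in the body and 62 were called as falling (31.0% of the genes falling apically and 44.0% of the 141 falling in the body). Over all 21683 genes, 15428 had the same sign in both tissues. The 16 body-rich genes that fell differed from the rest, with 7 of 16 sharing the sign and a median log2 fold change of 0.20 in the body, whereas in the other 184 the median was -1.09.

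**Figure D2:**
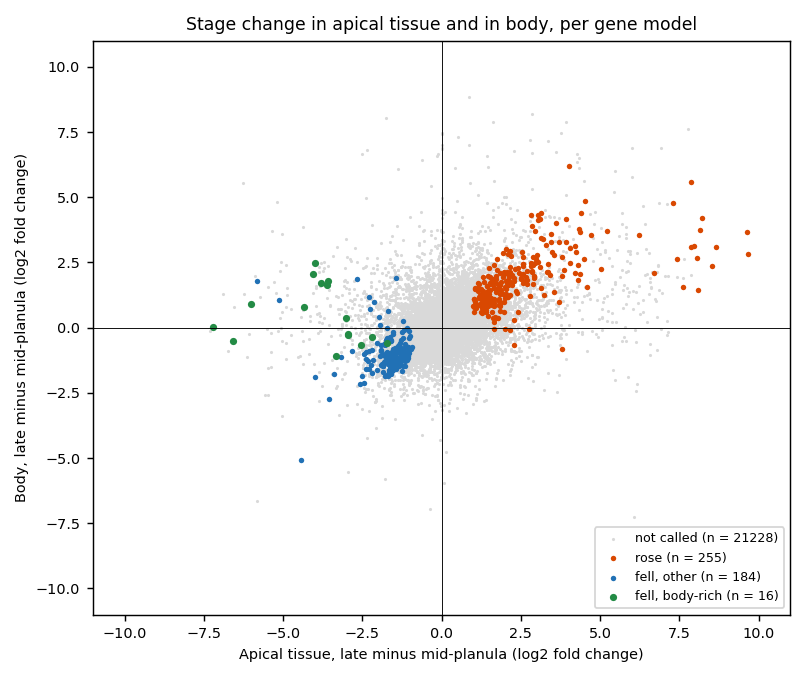
Log2 fold change from mid- to late planula in the apical tissue (horizontal axis) and in the body (vertical axis) for each of 21683 gene models, with genes called in the apical tissue in colour: 255 that rose, 184 that fell, and 16 that fell and were at least 4 times higher in the mid-planula body. Nearly all genes that rose lie above 0 in the body (249 of 255), whereas the body-rich genes that fell are spread to both sides of 0.

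Whether a stage change differed between the tissues was tested as the interaction of stage and tissue in the same fit, and 5 genes passed (0.0231% of those tested), with 875 (4.04%) at an unadjusted p-value under 0.05. DESeq2 called 110 and limma-voom 1. In all 5 the level went down in the apical tissue and up in the body. The most abundant in the apical piece was NVE253, with 15.02 and 19.3 CPM in mid-planula replicates 1 and 2 and 8.37, 4.29 and 6.10 CPM in late replicates 1, 2 and 3, whereas its mean in the body went from 24.9 to 92.9 CPM. Its log2 fold change was -1.45 in the apical tissue (adjusted p = 0.0252, edgeR) and 1.90 in the body (adjusted p = 0.00894), and the interaction had an adjusted p-value of 0.0144. NVE6370 had 3.02 and 3.003 CPM in the mid-planula and 0.881, 1.13 and 1.26 CPM in the late apical libraries, against body means of 1.85 and 14.2 CPM (interaction adjusted p = 0.0144), so that it was the higher in the apical piece at the first stage and the higher in the body at the second. NVE3642, at 3.05 and 2.35 CPM against 1.65, 1.26 and 1.19 CPM, had body means of 6.40 and 32.3 CPM (interaction adjusted p = 0.0232). The apical change of these last 2 did not pass by itself (adjusted p = 0.0503 and 0.128). NVE17896 and NVE21815, both among the 16 body-rich genes that fell, were at traces in the apical piece. NVE17896 had 1.98 and 0.783 CPM in mid-planula replicates 1 and 2 and 0.0744 to 0.165 CPM in the late libraries. NVE21815 had 1.42 and 0.392 CPM and then 0 to 0.110 CPM. Their body means were 36.8 and 33.8 CPM in the mid-planula and 116 and 188 CPM in the late planula (interaction adjusted p = 0.0144 and 0.0445, edgeR). Both were highest in mid-planula replicate 1, the apical library with the highest level of body-restricted genes, whose part was not tested. The interaction was not refitted without single libraries. The libraries entered as independent, so apical and body pieces that may come from the same larvae were not paired within a stage.

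Late replicate 2 was examined for each gene, because its composition was nearest to that of the mid-planula. Of the 455 called genes, 454 had a level in late replicate 2 beyond both mid-planula libraries in the called direction, all 255 that rose and 199 that fell. Over all 21683 tested genes, 13284 lay beyond both in the direction of their own fold change. The 455 were called with late replicate 2 in the fit and against the same mid-planula libraries. Their count is therefore a description. Genes called without late replicate 2 were also looked up in it, but they too were chosen against these mid-planula libraries. Of 254 that rose, late replicate 2 was above both mid-planula libraries for 247, and of 86 that fell it was below both for 84. Over all tested genes it was above both for 38.2% and below both for 34.9%. For the 254, the median log2 difference of late replicate 2 from the mid-planula mean was 1.76, where late replicates 1 and 3 together had 2.14. For the 86 it was -1.63, where they had -1.74. With late replicate 2 as the only late apical library, edgeR called 31 genes as higher (0.138%) and 6 as lower (0.0268%), and 34 of these 37 are among the 455.

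**Figure D3:**
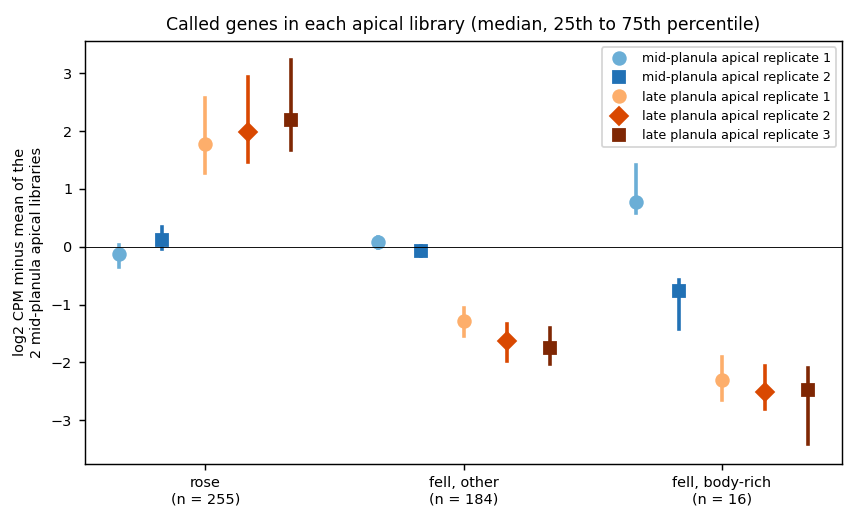
Level of the called genes in each apical library, as log2 CPM minus the mean of the 2 mid-planula libraries. Points are medians over genes and lines span the 25th to 75th percentile, for 255 genes that rose, 184 that fell and 16 body-rich genes that fell. The genes were called with all 5 libraries in the fit, so the side on which the late libraries lie follows from the choice of genes; late replicate 2 has medians of 1.99, -1.63 and -2.51, and the mid-planula libraries differ most in the body-rich group (0.77 and -0.77).

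The listed cell-type and neuronal genes, some of which were higher in the body than in the apical tissue, mostly did not pass the test. Of 34 genes for ring neurons, tuft cells, neuropeptides, neurotransmitter receptors or gland cells, 34 were tested and 1 rose, 0 fell and 33 did not pass, where 2.10% of all tested genes were called. The DESeq2 Wald test also called 1. Before adjustment 6 of the 34 had a p-value under 0.05, and their median log2 fold change was 0.14 against 0.04 over all genes, with 1 gene of the list (NVE15507) at the floor of 3 counts in every apical library. For 5 of them every late library was above both mid-planula libraries and for 2 every late library was below, where 16.6% and 16.3% of all tested genes did so.

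Of the 3 ring markers none passed. *Slc* (NVE8226), a ring gene with the name of a solute carrier, had 238.2 and 462 CPM in mid-planula replicates 1 and 2 and 1108, 405 and 551 CPM in late replicates 1, 2 and 3. Late replicate 1 was far above the others and late replicate 2 lay between the mid-planula libraries, so that the groups overlapped (log2 fold change 0.98 with a standard error of 0.41, adjusted p = 0.252, edgeR). *PoxA* (NVE14902), named for the Pox family of paired-box transcription factors, had 589.9 and 1021 CPM in the mid-planula and 1611, 401 and 785 CPM in the late planula (log2 fold change 0.21 with a standard error of 0.47). Its late libraries thus included both the highest and the lowest level of the 5. The third ring gene, NVE4712, showed the same order of the late libraries, at 529.5, 212 and 369 CPM, against 292 and 439 CPM in the mid-planula.

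The 6 spot markers, expressed in the tuft cells, also kept within the spread of the libraries, with adjusted p-values of 0.591 to 0.966 and log2 fold changes of -0.22 to 0.46. *ISX-like* (NVE14554), a paired-class homeobox gene of the tuft cells, had 359 and 462 CPM in the mid-planula and 542, 314 and 298 CPM in the late planula (log2 fold change -0.09 with a standard error of 0.45). NVE8009 was the steadiest between mid-planula libraries, at 273.5 and 270.4 CPM, and had 231, 284.5 and 187 CPM in the late planula. The low-level markers NVE27, NVE10492 and NVE2235 lay between 6.83 and 22.0 CPM in all 5 libraries, and NVE2832 between 114 and 247.5 CPM.

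The order of the libraries was shared by many, not all, of these apical markers. The 17 genes examined were those of the ring, the spot, gland-cell types 1 to 3, *PRGamide* and *Nv-RPamide III* (NVE3755). In 12 of the 17, late replicate 2 had the lowest level of the 3 late libraries (36.3% of all tested genes did so). In 9 of 17 late replicate 1 had the highest of all 5 (14.5% of all tested genes). NVE8009 and NVE10492 went the other way, with late replicate 2 the highest of the late libraries. In 14 of 17 mid-planula replicate 2 was above mid-planula replicate 1 (46.0% of all tested genes). The latter is the library with the highest level of body-restricted genes, whose part in this order was not tested. In such pooled tissue, fewer cells of a type and less RNA per cell cannot be told apart.

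Among the 7 neuropeptide precursor genes, which encode the secreted signalling peptides of cnidarian neurons, 1 rose. *Nv-LWamide* (NVE9858) is named for the LWamide peptides, members of which trigger metamorphosis in larvae of the hydrozoan *Hydractinia*. The gene had 2.67 and 2.02 CPM in mid-planula replicates 1 and 2 and 5.73, 7.04 and 12.4 CPM in late replicates 1, 2 and 3. Every late library was above both mid-planula libraries, with means of 2.35 ± 0.458 CPM (SD, n = 2) and 8.37 ± 3.51 CPM (SD, n = 3), and the log2 fold change was 1.81 (standard error 0.37, adjusted p = 0.0302, edgeR). The body had more of it at either stage, with means of 12.8 and 39.1 CPM and a rise of 1.61 on the log2 scale (adjusted p = 0.0316, edgeR). The 105 body-restricted genes, for comparison, summed to 411 and 91.0 CPM in the mid-planula and 107 to 127 CPM in the late apical libraries, and the part of body RNA in the rise was not tested. The call was lost in 8 of 18 alternatives, over which the adjusted p-value was 0.000306 to 0.168, among them those without mid-planula replicate 1 (0.168), mid-planula replicate 2 (0.158) or late replicate 3 (0.0917), and the log2 fold change stayed between 1.39 and 2.04.

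The other neuropeptide genes did not pass. *PRGamide* (NVE226) had 204 and 382 CPM in the mid-planula and 502, 145 and 423 CPM in the late planula, with late replicate 2 the lowest of the 5 (log2 fold change 0.28 with a standard error of 0.55, adjusted p = 0.861, edgeR). *Nv-RPamide III* (NVE3755) was at 80.5 and 109 CPM in the mid-planula and 186, 107 and 112 CPM in the late planula (log2 fold change 0.51, adjusted p = 0.553). NVE3775, a second identifier that carries the name RPamide III, was at 11.2 and 12.8 CPM and then at 8.92, 4.69 and 9.08 CPM. It was the only neuropeptide gene with all late libraries below both mid-planula libraries (log2 fold change -0.67 with a standard error of 0.35, adjusted p = 0.370). *Antho-RFamide* type 2 (NVE7549) had 27.4 and 43.1 CPM and then 72.2, 35.1 and 71.4 CPM (log2 fold change 0.76, adjusted p = 0.432). *HIRamide* (NVE15069) stayed between 0.551 and 2.71 CPM, against 27.3 and 37.4 CPM in the body at the 2 stages. The tachykinin-related gene NVE15507 had no more than 3 counts in any apical library.

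None of 8 genes for neurotransmitter receptors and a decarboxylase passed, with adjusted p-values of 0.372 to 0.992 in edgeR and none at an unadjusted p-value under 0.05. The cholinergic receptor gene NVE26207, the most abundant of them, had 53.7 and 76.3 CPM in the mid-planula and 105, 65.1 and 75.2 CPM in the late planula (log2 fold change 0.33 with a standard error of 0.27). The rhodopsin-family receptor NVE334 had nearly the same mean at both stages, 25.6 ± 3.82 CPM (SD, n = 2) and 25.9 ± 6.43 CPM (SD, n = 3). Every late library was above both mid-planula libraries for the metabotropic glutamate receptor NVE2150, at 1.49 and 2.22 CPM against 3.96, 2.48 and 2.53 CPM. The same held for the dopamine receptor NVE3835, at 0.971 and 4.70 CPM against 4.84, 6.001 and 4.76 CPM, where the mid-planula libraries differed more from each other than replicate 2 differed from the late ones. NVE3835 was called without mid-planula replicate 2 (log2 fold change 2.42, adjusted p = 0.0322, edgeR) and had a log2 fold change of 0.15 without replicate 1. The other dopamine receptor, NVE19409, had 2.98 and 0.522 CPM against 1.32, 0.541 and 0.893 CPM, and mid-planula replicate 1 was the highest. The G protein-coupled receptor NVE20518, at 1.21 and 0 CPM against 0.110, 0.632 and 0.298 CPM, was also highest in that library. The GABA receptor NVE5469 lay between 1.72 and 3.003 CPM and the decarboxylase NVE18494 between 2.87 and 10.1 CPM, with overlapping groups.

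Gland cells release mucus, enzymes or toxins, and the markers of types 1 to 3 were higher in the apical tissue than in the body in these libraries. Of the 6 markers of types 1 to 3, none passed. The type 1 marker NVE22589 came nearest, with 51.6 and 80.4 CPM in the mid-planula and 139, 86.7 and 150.5 CPM in the late planula. All late libraries were above both mid-planula libraries, late replicate 2 only slightly, and the log2 fold change was 0.93 (standard error 0.30, adjusted p = 0.131, edgeR). The second type 1 marker, NVE12895, lay between 24.8 and 33.8 CPM with overlapping groups (log2 fold change 0.03), so that the 2 markers of this cell type gave different values. The type 2 marker NVE11879 had 236 and 264 CPM and then 236.5, 70.2 and 201 CPM, a log2 fold change of -0.56, with late replicate 2 standing apart, and NVE8163 had 88.2 and 95.7 CPM and then 92.3, 64.1 and 62.1 CPM. The type 3 markers NVE23674 and NVE23675 had log2 fold changes of -0.05 and -0.28.

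The 4 markers of gland-cell type 4, which is a cell of the body, did not pass either. NVE23810 had 9.02 CPM in mid-planula replicate 1 and 0.131 to 1.04 CPM in the other 4 apical libraries, against 779 and 1667 CPM in the body at the 2 stages. Its log2 fold change of -2.78 (adjusted p = 0.131, edgeR) rested on that library, and without it the value was 2.35, whereas without mid-planula replicate 2 the gene was called (-3.70, adjusted p = 0.00533). NVE9234 had 11.2 and 4.70 CPM and then 3.85, 1.72 and 3.87 CPM (log2 fold change -1.37, adjusted p = 0.128, or 0.0303 with library sizes alone), whereas NVE10584, at 0.312 and 0.457 CPM and then 0.991, 1.31 and 0.596 CPM, had a positive value of 1.40 (adjusted p = 0.145). NVE26086 lay between 2.22 and 4.75 CPM in the 5 libraries. Thus the type 4 markers were not at 0 in any apical library, and they did not move in 1 direction.

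**Figure D4:**
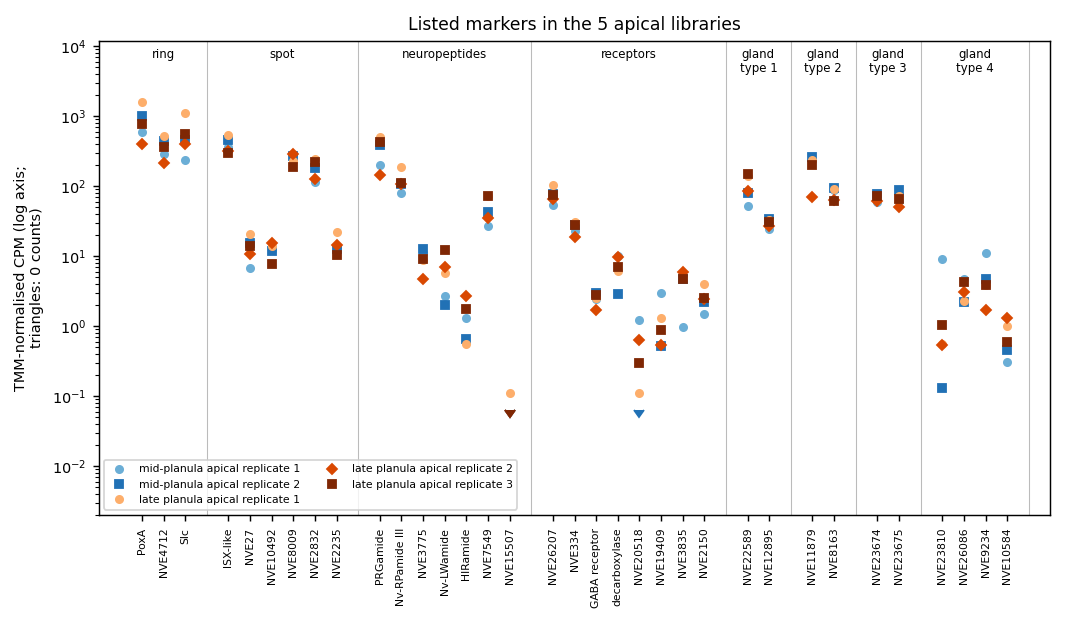
TMM-normalised CPM (log axis) of the 34 listed marker genes in the 5 apical libraries, blue for the mid-planula and orange to brown for the late planula, grouped by cell type or gene class. The stages overlap for most genes, and *Nv-LWamide* is separated by stage (2.67 and 2.02 against 5.73 to 12.4 CPM). Late replicate 2 (diamonds) is the lowest of the late libraries for the ring genes and *PRGamide*.

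A wider list of apically enriched genes was formed from the mean over both stages, taking 117 genes with at least 10 CPM in the apical tissue and at least 4 times the level in the body. It was chosen on these libraries after the other results were known. Of the 117, 3 rose (2.56%) and 0 fell, where 1.18% and 0.922% of all tested genes did, and 96 had an absolute log2 fold change under 1. Their median log2 fold change was 0.29, against 0.04 over all genes, and their median level was 53.2 CPM in the mid-planula and 66.0 CPM in the late planula. Mid-planula replicate 1, the apical library with the highest level of body-restricted genes, was the higher mid-planula library in 18 of the 117. Over all tested genes it was the higher in 11455 of 21683. Its part in the median change was not tested. Of the 3, the one that changed most had 13.1 and 31.4 CPM in the mid-planula libraries and 84.9, 102 and 116 CPM in the late ones (log2 fold change 2.19 with a standard error of 0.46, adjusted p = 0.0338, edgeR). Its body mean was 2.17 CPM in the mid-planula and 14.9 CPM in the late planula, so that the gene was enriched in the apical piece at both stages. The others had 32.5 and 37.2 CPM against 72.7, 81.8 and 83.5 CPM, and 8.26 and 14.8 CPM against 32.8, 30.4 and 43.4 CPM. In all 3 the stages did not overlap, and late replicate 2 was at or near the level of the other late libraries.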

How the data were processed

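RNA was measured in 10 libraries, of which the 5 apical libraries were compared by stage. The files the authors deposited hold unnormalised whole-number counts of reads, 1 value a gene model. According to the study's methods and the submitters' processing notes, reads were trimmed with Trimmomatic 0.36, mapped with STAR and counted on *Nematostella* gene models with HTSeq 0.6. The genome build and the strand setting are not given in the sources used here, so counts of overlapping, antisense or near-identical gene models are uncertain. Among counts of 1 to 20, 70.3% to 83.9% per library were even, and whether both mates of a pair were counted is not given in the sources used here. Floors of 3 counts cover counting error only.

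Stage, tissue and replicate number were taken from the sample labels. All 10 libraries were fitted as 4 groups of stage and tissue with edgeR 4.0.16 (R 4.3.3), TMM normalisation, filterByExpr (minimum count 10, minimum total 15) and the quasi-likelihood test, and p-values were adjusted over the 21683 of 25729 gene models that passed. Log2 CPM used a prior count of 2. Genes named are the 34 listed markers, the 5 genes of the interaction and, of the 10 largest changes in each direction, the first 2. These 10 were taken from called genes whose average log2 CPM was 1 or more, no overlap between stages and, for genes that rose, a call with late replicate 2 as the only late apical library. Only 5 genes that fell met this last condition, so it was dropped for them. Members and lists were chosen with earlier results of these data known. The alternatives were other normalisations, DESeq2 1.42.0, limma-voom (limma 3.58.1), other filters, a fold change minimum, the apical libraries alone, a replicate block, halved counts and leaving out libraries. The tests were tested on simulated data. Gene coordinates and sequences were not used here.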

Additional observations from a re-analysis of the deposited data

Results flagged for a closer look

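The stage change differed between the apical tissue and the body for 5 genes, tested with edgeR as a stage-by-tissue interaction. The difference between the tissues in log2 fold change (apical minus body) was -3.35 for NVE253, -5.28 for NVE17896, -4.40 for NVE6370, -3.32 for NVE3642 and -6.46 for NVE21815, with adjusted p-values of 0.0144, 0.0144, 0.0144, 0.0232 and 0.0445. With limma-voom the adjusted p-values were 0.0234 for NVE253, 0.423 for NVE17896, 0.0788 for NVE6370, 0.225 for NVE3642 and 0.874 for NVE21815.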

How the results depend on the processing

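The count of 455 called genes (255 higher, 200 lower) was 440 with DESeq2's size factors and 379 with limma-voom, of which 432 and 327 were among the 455. It was 1488 (926 and 562) with the DESeq2 Wald test, 728 (128 and 600) with library sizes alone, 225 (136 and 89) with the apical libraries alone and 37 (31 and 6) with late replicate 2 as the only late apical library. Leaving out each apical library in turn gave 0 to 361 genes, 0 to 254 higher and 0 to 157 lower. A lone mid-planula library was assumed to vary like the other groups. With the replicate number as a block edgeR called 0 genes, 0 higher and 0 lower, with 2467 at an unadjusted p-value under 0.05. The stages share only replicate numbers, and the deviations of same-numbered libraries from their group means correlated at -0.0975 and -0.251. The block also ended the call of NVE2089 (adjusted p = 0.0545) and gave 1 gene for the interaction (5 without it) and 63 for the body (572 without it), where the DESeq2 Wald test gave 110 and 1756, and limma-voom 1 and 1063. Of the listed markers 1 was called, against 0 with limma-voom, the apical libraries alone, the replicate block or late replicate 2 alone, and 0 to 2 without single libraries. The ratio of summed body-restricted genes, mid-planula over late planula, was 2.21 with TMM and 2.98 with library sizes alone. Causes were not tested. Depth limits the genes near 3 counts, whose fitted fold changes are not bounds.

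Log2 fold changes of markers that had not passed turned sign as follows. With library sizes alone they were -0.16 for *PoxA*, -0.36 for NVE4712, -0.26 for NVE10492, -0.085 for NVE2235, -0.11 for *PRGamide*, -0.027 for NVE26207, -0.37 for NVE334, -0.16 for NVE18494 and -0.33 for NVE12895. With late replicate 2 as the only late apical library they were -1 for *PoxA*, -0.78 for NVE4712, -0.054 for NVE27, 0.068 for NVE8009, -0.19 for NVE2832, -1.01 for *PRGamide*, -0.0029 for NVE7549, -0.46 for NVE334 and -0.11 for NVE12895. With limma-voom they were -0.050 for NVE4712, -0.011 for NVE334 and 0.17 for NVE20518, and with the replicate block -0.015 for NVE4712, 0.19 for *ISX-like* and -0.086 for NVE334. Without single libraries the ranges that spanned 0 were -0.44 to 0.66 for *PoxA*, -0.33 to 0.35 for NVE4712, -0.42 to 0.10 for *ISX-like*, -0.017 to 1.15 for NVE27, -0.069 to 0.30 for NVE10492, -0.065 to 0.47 for NVE2235, -0.097 to 0.81 for *PRGamide*, -0.13 to 0.26 for NVE334, -0.37 to 0.039 for NVE5469, -0.40 to 1.42 for NVE18494, -1.74 to 5.87 for NVE20518, -1.70 to 0.80 for NVE19409, -0.17 to 0.27 for NVE12895, -0.23 to 0.16 for NVE23674, -0.52 to 0.019 for NVE23675, -3.70 to 2.35 for NVE23810 and -0.59 to 0.51 for NVE26086. All of these sign changes were in genes outside the threshold under the setting named. No gene that the text names as called with all libraries in the fit turned sign. NVE23810, called only without mid-planula replicate 2, had the opposite sign without mid-planula replicate 1.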
